A study of Mus musculus with 24 samples.

Results

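Mitochondrial beta-oxidation enzymes are described here as 10 genes, chosen by name: Acadvl, Acadl, Acadm, Acads, Hadha, Hadhb, Acaa2, Decr1, Eci1 and Eci2. Each was measured by a single probe set that carried only that gene's symbol, so that 10 of 10 were measured, among 19937 genes in all. The cells were mouse keratinocytes in primary culture, from strain C57/BL6, which are the main cells of the epidermis. They were Ppar-beta null or wild-type, had been transduced for 48 hours with an Hras retrovirus or mock transduced after 2 days of culture, and had received GW0742 at 1 uM for 24 hours or its vehicle DMSO. The 8 groups of 3 arrays were thus null Hras GW0742, null Hras DMSO, wild-type Hras GW0742, wild-type Hras DMSO, null mock GW0742, null mock DMSO, wild-type mock GW0742 and wild-type mock DMSO. The labels do not name the exons of Ppard, the gene of Ppar-beta, that the null allele lacks. Whether the 3 arrays of a group came from different animals or cultures is not stated either, so p-values cover array-to-array spread that could be technical.

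Beta-oxidation shortens fatty acids in the mitochondrial matrix by repeated rounds of dehydrogenation, hydration, a second dehydrogenation and thiolysis, each round releasing acetyl-CoA. Acyl-CoA dehydrogenases of overlapping chain-length preference begin a round, the trifunctional protein carries out the later steps for long chains, and auxiliary enzymes let unsaturated chains enter. Ppar-beta, also called PPAR-delta, is a nuclear receptor activated by fatty acids that pairs with RXR and binds repeated hexamers in DNA. GW0742 is a synthetic agonist of it. Beta-oxidation genes are long known as targets of PPAR receptors in muscle and liver, and the epidermis expresses Ppar-beta strongly.

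Hadha and Hadhb encode the alpha and beta subunits of the trifunctional protein, and they stand head to head on chromosome 5. Their transcription starts in RefSeq (GRCm38.p6) lie 273 bases apart, and their promoter windows, 250 bases before to 50 after each start, share 228 bases, from chr5:30155003-30155230, with 57% G and C. The Hadhb window is shown because the levels of the pair ran almost in parallel over the 8 groups (Pearson r = 0.990 over group means). It covers chr5:30155003-30155302 on the plus strand of GRCm38.p6, and the capitals mark the bases that also belong to the Hadha window.
Hadhb: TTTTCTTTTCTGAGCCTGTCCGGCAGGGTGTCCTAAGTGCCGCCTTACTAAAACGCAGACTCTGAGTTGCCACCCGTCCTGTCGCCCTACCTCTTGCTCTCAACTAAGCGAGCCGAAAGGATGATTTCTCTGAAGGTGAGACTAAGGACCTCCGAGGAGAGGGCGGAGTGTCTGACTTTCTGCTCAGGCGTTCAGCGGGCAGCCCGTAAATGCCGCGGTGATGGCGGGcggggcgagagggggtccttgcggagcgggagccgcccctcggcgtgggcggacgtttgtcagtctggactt

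Windows of the same length were available for 8 of the 10 genes, but not for Acaa2 and Decr1. These 8 windows were searched on both strands for the PPAR element, a direct repeat of a hexamer spaced by 1 base, AGGTCANAGGTCA. With at most 2 mismatches over its 12 fixed letters, 0 of the 8 windows held it, against 3.86% of the 32851 windows of all genes. With at most 3 mismatches it was found in 1 of the 8, that of Acadm, the medium-chain dehydrogenase, against 24.6% of all windows. The Acadm window is shown because it alone of the 8 held a match. It covers chr3:153944594-153944893 on the minus strand of GRCm38.p6, and the capitals mark the matches, of which 2 overlap on opposite strands.
Acadm: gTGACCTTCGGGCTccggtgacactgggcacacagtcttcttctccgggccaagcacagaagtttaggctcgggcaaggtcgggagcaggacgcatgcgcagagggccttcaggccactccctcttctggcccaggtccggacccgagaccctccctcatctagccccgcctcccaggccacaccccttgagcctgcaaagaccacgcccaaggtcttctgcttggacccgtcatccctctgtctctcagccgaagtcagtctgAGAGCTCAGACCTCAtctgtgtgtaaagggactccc
A match is a description of letters and not a site, and the search covers these windows only. The 8 windows are too few to tell their counts from the shares of all windows.

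Levels are log2 values made with RMA, and differences are given as log2 ± standard error from a limma model of all 24 arrays, with Benjamini-Hochberg adjusted p-values taken across the 19937 genes and a threshold of 0.05. The median log2 level of the arrays lay between 7.89 and 7.98. The spread was widest among the null Hras GW0742 arrays, where the median SD over genes was 0.122, against 0.0647 to 0.0798 in the other groups. Keratinocyte markers ranged from Krt5, with group means between 14.03 and 14.28, down to Krt15, between 7.76 and 8.74. Melanocyte markers ranged from Tyrp1, between 11.42 and 12.64, down to Tyr, between 6.59 and 7.63. Null cells had less Ppard signal than wild-type cells in all 4 settings, with differences of -0.57 ± 0.06 in mock DMSO cells (adjusted p = 1.53e-06), -0.28 ± 0.06 in Hras DMSO cells, -0.55 ± 0.06 in mock GW0742 cells and -0.46 ± 0.06 in Hras GW0742 cells. It was still measured at 10.62 in null mock DMSO cells, against 11.19 in wild-type mock DMSO cells, and a probe set outside the deleted exons checks nothing.

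In wild-type mock keratinocytes GW0742 raised 7 of the 10 enzymes and lowered 0, while 1.25% of all genes rose, 1.61% fell and 2.86% changed in either direction. The rises were largest for Decr1, which encodes the mitochondrial dienoyl-CoA reductase that unsaturated chains require, and for Eci2, an enoyl-CoA isomerase found in mitochondria and peroxisomes. The members' median difference was 0.64, against 0.00 over all genes. The 3 that did not pass were Acadm, Acads (the short-chain dehydrogenase) and Eci1 (the other mitochondrial enoyl-CoA isomerase).

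Decr1 had log2 levels of 9.38, 9.49 and 9.33 in the wild-type mock GW0742 arrays, against 7.41, 7.35 and 7.50 in the wild-type mock DMSO arrays. All 3 ligand arrays thus lay far above all 3 vehicle arrays, by 1.98 ± 0.10 or 3.95-fold (adjusted p = 9.46e-12). Eci2 was at 10.43, 10.49 and 10.52 with GW0742, against 9.02, 9.04 and 9.03 with DMSO, a rise of 1.45 ± 0.09 or 2.73-fold (adjusted p = 3.12e-10). Its vehicle arrays differed by only a few hundredths, and the groups lay clear of each other. Over all genes, 4950 of 19937 had groups without overlap in this comparison.

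The trifunctional protein subunits rose by similar amounts. Hadhb measured 10.92, 10.98 and 10.92 with GW0742, against 9.72, 9.74 and 9.67 with DMSO (1.23 ± 0.06, adjusted p = 2.69e-12). Hadha measured 12.43, 12.43 and 12.48 with GW0742, against 11.38, 11.38 and 11.33 with DMSO (1.08 ± 0.05, adjusted p = 2.42e-12). Neither gene's groups overlapped, and both rises were over 2-fold, at 2.35-fold and 2.11-fold. Acaa2, the matrix thiolase that ends a round for medium chains, was at 12.15, 12.13 and 12.15 with GW0742, against 11.22, 11.27 and 11.23 with DMSO (0.90 ± 0.07, adjusted p = 2.5e-08).

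Among the 4 acyl-CoA dehydrogenases the rises were smaller. Acadvl, the very-long-chain enzyme of the inner membrane, was at 9.53, 9.57 and 9.50 with GW0742, against 9.20, 9.15 and 9.11 with DMSO (0.38 ± 0.07, adjusted p = 0.00419). Acadl, the long-chain enzyme, was at 10.77, 10.90 and 10.79 with GW0742, against 10.60, 10.57 and 10.48 with DMSO (0.27 ± 0.06, adjusted p = 0.0205). The groups did not overlap for either gene, but the Acadl call was lost without DMSO replicate 2 (adjusted p = 0.064) or 3 (0.115) and without GW0742 replicate 2 (0.124) or 3 (0.053). Acadm stood at 10.11, 10.15 and 10.12 with GW0742, against 10.26, 10.30 and 10.31 with DMSO. Its ligand arrays lay below its vehicle arrays, with a difference of -0.16 ± 0.06 that did not pass (adjusted p = 0.245). Acads (-0.08, 95% interval -0.22 to 0.05) and Eci1 (-0.06, 95% interval -0.22 to 0.09) had overlapping arrays.

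**Figure D1:**
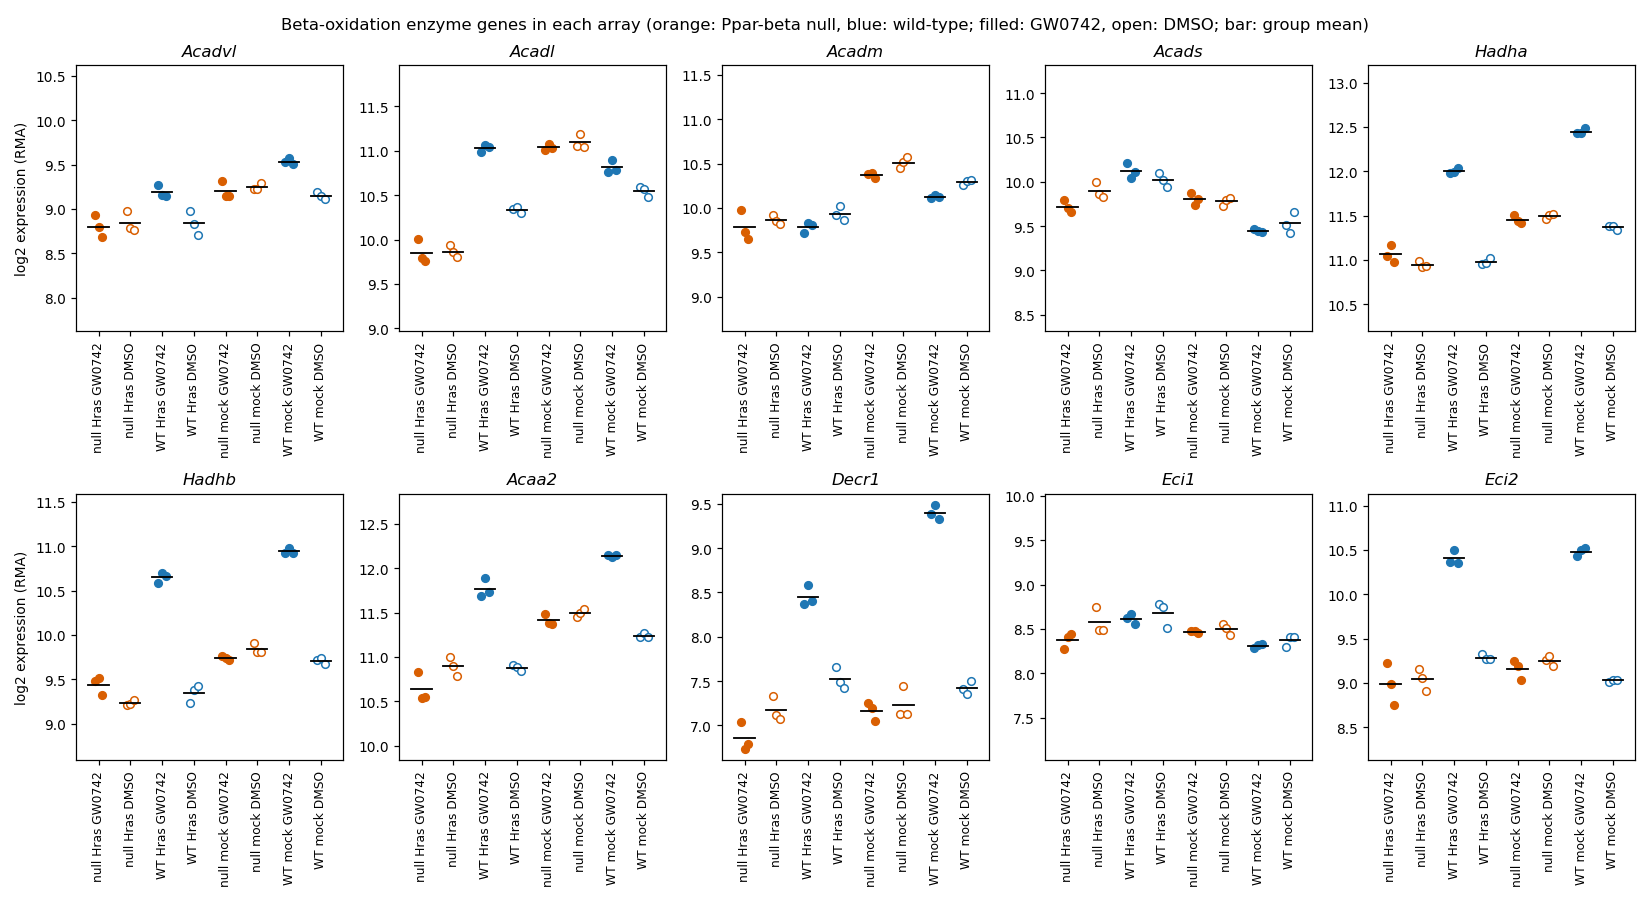
Log2 expression (RMA) of each gene in each of the 24 arrays, 1 panel per gene with an axis of equal height in log2 units, orange for Ppar-beta null and blue for wild-type cells, filled for GW0742 and open for DMSO, with bars at group means (n = 3). The wild-type GW0742 arrays of Hadha, Hadhb, Acaa2, Decr1 and Eci2 lie above all other arrays of those genes, and those of Acadm, Acads and Eci1 do not.

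With Hras present, wild-type cells showed 7 of the 10 enzymes raised by GW0742 and 0 lowered, where 4.46% of all genes rose, 1.65% fell and 6.11% changed in either direction. All 7 were those raised in mock cells. The comparisons share no arrays, but they share the model's estimate of spread. Whether their cells came from the same animals is not stated. The members' median was 0.79, against -0.01 over all genes. Hadhb now had the largest difference, with 10.58, 10.70 and 10.67 in the wild-type Hras GW0742 arrays, against 9.24, 9.38 and 9.42 in the wild-type Hras DMSO arrays (1.30 ± 0.06, adjusted p = 1.45e-12). Hadha was at 11.98, 11.99 and 12.03 with GW0742, against 10.95, 10.96 and 11.03 with DMSO (1.02 ± 0.05, adjusted p = 4.33e-12). Both subunits therefore again separated the groups without overlap.

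Eci2 was at 10.36, 10.50 and 10.35 in wild-type Hras GW0742 arrays, against 9.32, 9.27 and 9.27 with DMSO (1.12 ± 0.09, adjusted p = 1.39e-08). Decr1 reached 8.37, 8.58 and 8.41 with GW0742, against 7.66, 7.49 and 7.42 with DMSO (0.93 ± 0.10, adjusted p = 1.06e-06). Acaa2 was at 11.69, 11.89 and 11.73 with GW0742, against 10.91, 10.89 and 10.84 with DMSO (0.89 ± 0.07, adjusted p = 1.73e-08). None of these 3 genes had overlapping groups. Groups without overlap were found for 4436 of 19937 genes in this comparison. Acadl was at 10.99, 11.06 and 11.04 with GW0742, against 10.34, 10.37 and 10.30 with DMSO (0.70 ± 0.06, adjusted p = 1.31e-07). Acadvl rose by 0.36 ± 0.07 (adjusted p = 0.00361). Acadm (-0.15, 95% interval -0.29 to -0.02, adjusted p = 0.222), Acads (0.10, -0.04 to 0.24) and Eci1 (-0.06, -0.21 to 0.09) did not pass.

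The size of the ligand effect in wild-type cells differed between Hras and mock cells for 2 enzymes, where 2.05% of all genes had a positive difference, 0.421% a negative one and 2.47% either. For Decr1 the effect was smaller with Hras, by -1.05 ± 0.14 (adjusted p = 0.000107), and for Acadl it was larger, by 0.43 ± 0.09 (adjusted p = 0.00955). For Eci2 the difference of -0.33 ± 0.12 did not pass (adjusted p = 0.214), but did when only the arrays compared were modelled (0.0284). The trifunctional subunits had differences near 0, with 95% intervals from -0.20 to 0.08 for Hadha and from -0.10 to 0.23 for Hadhb.

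In null cells the differences with the ligand were between -0.32 and 0.21. In null mock cells limma called 0 of 10, as it called 0% of all genes, and 1 of 10 had an unadjusted p under 0.05, Acadm. The differences lay between -0.14 for Acadm and 0.03 for Acads, with a median of -0.06. Decr1 was at 7.25, 7.19 and 7.05 in null mock GW0742 arrays, against 7.13, 7.44 and 7.13 in null mock DMSO arrays, so the groups overlapped (95% interval -0.27 to 0.14). Hadhb was at 9.76, 9.74 and 9.72 with GW0742, against 9.91, 9.81 and 9.81 with DMSO, which placed the ligand arrays just below (-0.11 ± 0.06, adjusted p = 0.903).

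In null Hras cells 1 enzyme was higher and 1 lower with GW0742, where 3.51% of all genes rose, 1.51% fell and 5.02% changed. Hadhb was at 9.48, 9.51 and 9.33 in null Hras GW0742 arrays, against 9.21, 9.22 and 9.27 in null Hras DMSO arrays (0.21 ± 0.06, adjusted p = 0.0332). Acaa2 was at 10.83, 10.54 and 10.55 with GW0742, against 11.00, 10.90 and 10.79 with DMSO, with the groups overlapping (-0.26 ± 0.07, adjusted p = 0.0331). With arrays centred on their median Hadhb no longer passed (adjusted p = 0.0653). Neither call held with only these 6 arrays in the model (adjusted p = 0.455 and 0.494), where limma called 0 of all genes, with 1763 at an unadjusted p under 0.05. Both calls were also lost without DMSO replicate 1 (0.115 for Hadhb, 0.176 for Acaa2) or 2 (0.1 and 0.0838) and without GW0742 replicate 2 (0.199 and 0.212), Hadhb's also without GW0742 replicate 1 (0.0544) and Acaa2's without GW0742 replicate 3 (0.142). Decr1 was at 7.03, 6.74 and 6.79 with GW0742, against 7.34, 7.11 and 7.08 with DMSO, without overlap, and did not pass (-0.32 ± 0.10, adjusted p = 0.0612), although it did with the dimmest 40% of genes left out (0.031), with trend and robust moderation (0.0436), with centred arrays (0.0472) and without GW0742 replicate 1 (0.0107). Groups without overlap were found for 3004 of 19937 genes in this comparison. In the same comparison 5 of 6 melanocyte markers were higher, their summed log2 level being 12.97 to 13.31 with GW0742, against 12.61 to 12.74 with DMSO, and their part in these values was not tested.

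The test of the difference between genotypes, as the effect in null cells minus that in wild-type cells, passed for 5 enzymes in mock cells, all negative, where 0.562% of all genes had a negative difference, 0.286% a positive one and 0.848% either. Decr1 differed by -2.05 ± 0.14 (adjusted p = 3.87e-09), Eci2 by -1.54 ± 0.12, Hadhb by -1.34 ± 0.08, Hadha by -1.12 ± 0.07 and Acaa2 by -0.98 ± 0.10. Acadvl (-0.43 ± 0.11, adjusted p = 0.0606) and Acadl (-0.32 ± 0.09, adjusted p = 0.121) did not pass. With the replicate number as a block Acadvl passed (adjusted p = 0.01), as it did under 4 other alternatives with all its arrays (0.0145 to 0.0381). It also passed without null mock GW0742 replicate 1 (0.0369). Acadl passed with trend and robust moderation (0.0418) and without the null Hras GW0742 group (0.0417).

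In Hras cells the difference was negative for 6 enzymes, where 1.21% of all genes had a negative difference, 0.517% a positive one and 1.73% either. The values were -1.25 ± 0.14 for Decr1 (adjusted p = 8.32e-06), -1.17 ± 0.12 for Eci2, -1.15 ± 0.10 for Acaa2, -1.09 ± 0.08 for Hadhb, -0.90 ± 0.07 for Hadha and -0.71 ± 0.09 for Acadl. Acadvl again fell just short (-0.40 ± 0.11, adjusted p = 0.0641). It passed with the replicate block (0.0128) and under 2 other alternatives with all its arrays (0.0291 and 0.0347). It also passed without wild-type Hras DMSO replicate 1 (0.0242) and without null Hras GW0742 replicate 1 (0.0172). For Acadm the differences were 0.02 in mock cells and 0.07 in Hras cells, with 95% intervals from -0.17 to 0.21 and from -0.12 to 0.26.

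**Figure D2:**
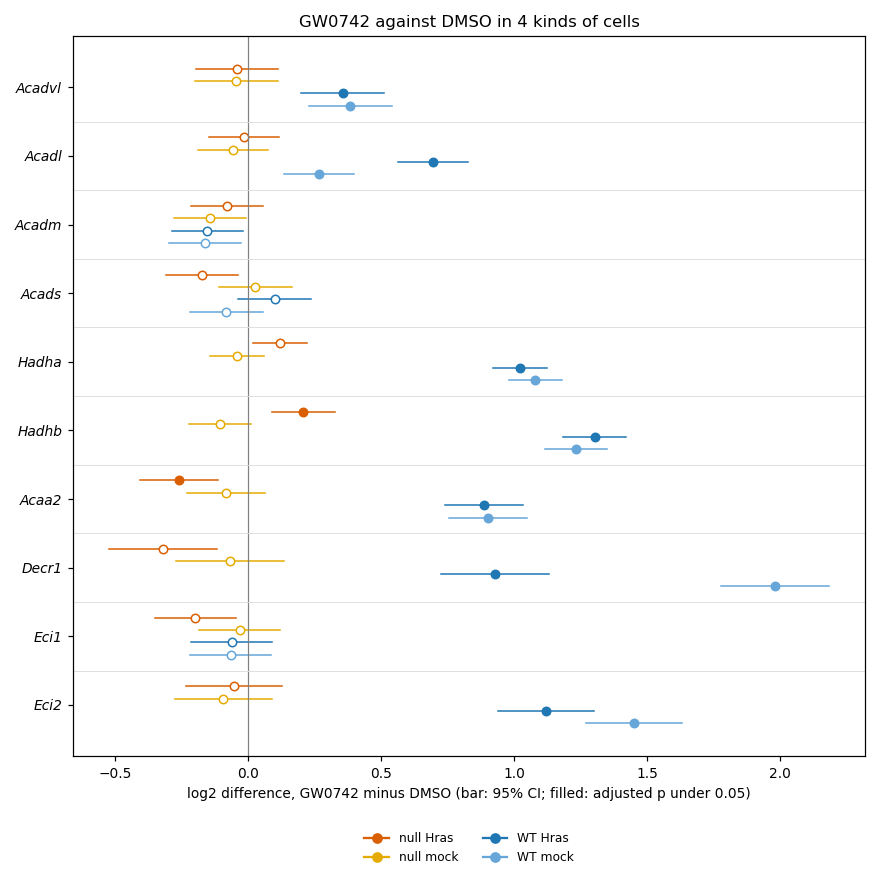
Log2 difference of GW0742 minus DMSO for each gene in null Hras, null mock, wild-type Hras and wild-type mock cells, with 95% confidence intervals from the limma model and filled points where the adjusted p was under 0.05. In both wild-type settings 7 genes stand to the right of 0, by up to 1.98 for Decr1 in mock cells, and in null cells all points lie between -0.32 and 0.21.

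Genes that serve the same pathway outside the 10 were described from a list of 24, of which 21 were analysed here. With GW0742 8 rose and 1 fell in wild-type mock cells (median 0.10) and 9 rose and 1 fell in wild-type Hras cells (median 0.18). Cpt1a, which makes acylcarnitines for entry into mitochondria, rose by 1.30 ± 0.07 in mock and 1.42 ± 0.07 in Hras cells. The carnitine carrier Slc25a20 rose by 0.78 ± 0.06 and 0.85 ± 0.06, Cpt2, which re-forms acyl-CoA in the matrix, by 0.79 ± 0.07 and 0.91 ± 0.07, and the thioesterase gene Acot2 by 0.83 ± 0.10 and 0.85 ± 0.10. The gene that fell in both was Acadsb, a dehydrogenase of branched-chain amino acid breakdown (-0.52 ± 0.09 and -0.45 ± 0.09), named after its values were seen. In null mock cells 0 of 21 passed by limma, with 1 at an unadjusted p under 0.05, and in null Hras cells 0 rose and 1 fell. The difference between genotypes passed for 7 of these genes in mock and 8 in Hras cells, all negative.

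Citric acid cycle enzymes, which take up the acetyl-CoA that beta-oxidation releases, stayed closer to 0. Of 16 analysed here, 1 rose in wild-type mock cells with GW0742, Suclg1 (0.22 ± 0.05, adjusted p = 0.0261), and the median was 0.03. In wild-type Hras cells 0 passed by limma, with 2 at an unadjusted p under 0.05, and the differences lay between -0.16 and 0.07. Of 13 receptors and coactivators, 0 passed in wild-type mock cells by limma, with 2 at an unadjusted p under 0.05, and in wild-type Hras cells 1 did, the coactivator gene Ppargc1a (-0.42 ± 0.09, adjusted p = 0.00471).

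Markers of cell types were set beside these ligand comparisons in wild-type cells. Of 10 keratinocyte, 6 melanocyte, 6 leukocyte, 5 adipocyte and 6 skeletal muscle markers analysed here, none passed in either wild-type comparison by limma, and at most 2 of any list had an unadjusted p under 0.05. Of 7 fibroblast markers 1 fell in mock cells and 1 rose in Hras cells. Their summed log2 level was 12.47 to 12.64 in wild-type mock GW0742 arrays, against 12.65 to 12.75 in wild-type mock DMSO arrays, and 11.41 to 11.51 in wild-type Hras GW0742 arrays, against 11.47 to 11.54 in wild-type Hras DMSO arrays. The summed melanocyte level was 13.66 to 13.73 in wild-type mock GW0742 arrays, against 13.80 to 13.89 in wild-type mock DMSO arrays. In wild-type Hras cells it was 12.75 to 12.90 with GW0742, against 12.64 to 12.82 with DMSO. The part of these cell types in the ligand values was not tested.

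Hras changed these enzymes in both directions. In wild-type DMSO cells 6 fell and 3 rose, where 19% of all genes fell and 18.4% rose, 37.4% in all. Those that fell were the trifunctional subunits Hadha (-0.39 ± 0.05) and Hadhb (-0.36 ± 0.06), the thiolase Acaa2 (-0.36 ± 0.07), and the dehydrogenases Acadm (-0.35 ± 0.06), Acadvl (-0.31 ± 0.07) and Acadl (-0.22 ± 0.06), with adjusted p between 8.92e-07 and 0.00914. Acads rose to 10.10, 10.03 and 9.94 in wild-type Hras DMSO arrays, against 9.51, 9.42 and 9.66 in wild-type mock DMSO arrays (0.49 ± 0.07, adjusted p = 2.25e-06). The isomerase genes Eci1 (0.30 ± 0.07, adjusted p = 0.00184) and Eci2 (0.26 ± 0.09, adjusted p = 0.0235) rose too, and the groups of all 3 lay apart. So did the groups of 9872 of 19937 genes in this comparison. The Eci2 call was lost without any single wild-type mock DMSO replicate (adjusted p = 0.061, 0.0508 and 0.0515) or wild-type Hras DMSO replicate 1 (0.0731). Decr1 did not pass (0.10 ± 0.10, adjusted p = 0.47).

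In null DMSO cells Hras lowered 6 enzymes and raised 0, where 20.5% of all genes fell, 20.2% rose and 40.7% changed. Acadl fell most, to 9.94, 9.85 and 9.80 in null Hras DMSO arrays, against 11.06, 11.19 and 11.05 in null mock DMSO arrays. The gap of over 1 log2 unit between the groups gave -1.23 ± 0.06, a level 2.35-fold lower (adjusted p = 7.09e-13). Acadm (-0.65 ± 0.06), Hadhb (-0.61 ± 0.06), Acaa2 (-0.60 ± 0.07), Hadha (-0.55 ± 0.05) and Acadvl (-0.40 ± 0.07) fell as well. Acads (0.11, 95% interval -0.02 to 0.25), Eci1 (0.07, -0.08 to 0.22), Decr1 (-0.06, -0.26 to 0.14) and Eci2 (-0.21, -0.39 to -0.03) did not pass. Eci2 passed with the replicate block (adjusted p = 0.0373), as it did under 3 other alternatives with all its arrays (0.0113 to 0.0367), and Acads passed with centred arrays (0.0396).

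Markers moved with Hras as well. In wild-type DMSO cells 7 of 7 fibroblast and 6 of 6 melanocyte markers fell, and 6 of 10 keratinocyte markers. In null DMSO cells 4 fibroblast markers fell and 1 rose, 6 of 6 melanocyte markers fell, and 7 keratinocyte markers fell and 1 rose. The summed fibroblast level in DMSO was 11.47 to 11.54 in wild-type Hras DMSO arrays, against 12.65 to 12.75 in wild-type mock DMSO arrays, and 11.44 to 11.57 in null Hras DMSO arrays, against 12.13 to 12.16 in null mock DMSO arrays. With GW0742, 6 fibroblast markers fell in wild-type cells, 5 fell and 1 rose in null cells, and 6 and 5 of 6 melanocyte markers fell. The summed melanocyte level in DMSO was 12.64 to 12.82 in wild-type Hras DMSO arrays, against 13.80 to 13.89 in wild-type mock DMSO arrays, and 12.61 to 12.74 in null Hras DMSO arrays, against 13.50 to 13.55 in null mock DMSO arrays. In bulk RNA fewer cells of a type and less RNA per cell cannot be told apart, and the part of these cell types in the Hras values was not tested.

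The Hras effect differed between genotypes for 5 enzymes in DMSO, all more negative in null cells, where 8.41% of all genes had a negative difference, 8.35% a positive one and 16.8% either. Acadl differed by -1.02 ± 0.09 (adjusted p = 1.39e-07). Eci2 differed by -0.47 ± 0.12 (adjusted p = 0.0107), Acads by -0.38 ± 0.09 (0.00619), Acadm by -0.29 ± 0.09 (0.031) and Hadhb by -0.25 ± 0.08 (0.0327). The Acadm call was lost without any of 8 single arrays, all but wild-type mock DMSO replicate 3, null mock DMSO replicate 1, wild-type Hras DMSO replicate 3 and null Hras DMSO replicate 1 (adjusted p between 0.0503 and 0.0963). That of Hadhb was lost without wild-type mock DMSO replicate 1 or 3, null mock DMSO replicate 1, wild-type Hras DMSO replicate 2 or 3 and null Hras DMSO replicate 1 or 2 (between 0.0562 and 0.0879), with arrays centred on their median (0.0527) and when only the 12 arrays compared were modelled (0.0553). In the same test of the difference 5 of 7 fibroblast markers were positive and 1 negative (median 0.91), and 3 of 6 melanocyte markers were positive and 0 negative (median 0.26). Their summed levels in these groups are those given with the Hras values, and their part in the difference was not tested.

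With the ligand present, Hras lowered 6 and raised 3 enzymes in wild-type cells, where 17.5% of all genes fell, 17.7% rose and 35.2% changed. Decr1 fell by -0.95 ± 0.10 (adjusted p = 5.49e-08), Hadha by -0.45 ± 0.05, Acaa2 by -0.37 ± 0.07, Acadm and Acadvl by -0.34 each (± 0.06 and ± 0.07) and Hadhb by -0.29 ± 0.06. Acads rose by 0.67 ± 0.07, Eci1 by 0.31 ± 0.07 and Acadl by 0.21 ± 0.06, the last lost without wild-type mock GW0742 replicate 1 (adjusted p = 0.0507). In null cells with GW0742 Hras lowered 7 and raised 0, where 20.7% of all genes fell, 21% rose and 41.8% changed, with Acadl at -1.19 ± 0.06, Acaa2 at -0.78 ± 0.07 and Acadm at -0.59 ± 0.06. Acadvl (-0.40 ± 0.07), Hadha (-0.39 ± 0.05), Decr1 (-0.31 ± 0.10) and Hadhb (-0.30 ± 0.06) were the others, Decr1 being lost without null mock GW0742 replicate 1 (adjusted p = 0.0596) or null Hras GW0742 replicate 2 (0.0706).

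Other fatty acid oxidation genes fell with Hras in 12 of 21 cases and rose in 2 in wild-type DMSO cells, and fell in 15 and rose in 3 in null DMSO cells, with medians of -0.26 and -0.31. The largest changes in null cells were those of Cpt1a (-1.85 ± 0.07) and Acot2 (1.59 ± 0.10), and in wild-type cells those of Acad9, also an assembly factor of respiratory complex I (-1.01 ± 0.06), and Acat1, the acetoacetyl-CoA thiolase (-0.94 ± 0.07). Of the 16 citric acid cycle enzymes 4 fell and 2 rose in wild-type and 4 fell and 4 rose in null DMSO cells. Over all genes 37.4% changed with Hras in wild-type and 40.7% in null DMSO cells. Among the regulators, Rxra, the usual partner of PPAR receptors in epidermis, fell by -0.70 ± 0.05 in wild-type and -1.01 ± 0.05 in null DMSO cells, and the repressor gene Nr2f2 rose by 1.37 ± 0.07 and 0.56 ± 0.07. The coactivator gene Ppargc1b fell by -0.70 ± 0.07 in wild-type and -0.58 ± 0.07 in null DMSO cells. The coactivator gene Ncoa1 fell by -0.58 ± 0.07 in wild-type and, given for comparison, by -0.39 ± 0.07 in null DMSO cells. Ppard itself rose by 0.46 ± 0.06 in wild-type and 0.75 ± 0.06 in null DMSO cells.

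Without ligand the genotype differences lay between -0.18 and 0.55 in mock cells and between -0.47 and 0.01 in Hras cells. In mock DMSO cells 4 enzymes were higher in null and 0 lower, where 4.89% of all genes were higher, 5.53% lower and 10.4% differed. Acadl was at 11.06, 11.19 and 11.05 in null arrays, against 10.60, 10.57 and 10.48 in wild-type arrays (0.55 ± 0.06, adjusted p = 3.94e-06), with no overlap. Over all genes, 6143 of 19937 had no overlap in this comparison. Acaa2 (0.26 ± 0.07, adjusted p = 0.0202), Acads (0.25 ± 0.07, 0.0148) and Acadm (0.22 ± 0.06, 0.0306) passed with all arrays. Acaa2 was lost without wild-type mock DMSO replicate 1 or 3 or null mock DMSO replicate 2 or 3 (adjusted p between 0.0591 and 0.0834), Acads without wild-type replicate 1 or 2 or null replicate 2 or 3 (0.0526 to 0.106) and with only these 6 arrays in the model (0.0574), and Acadm without any wild-type replicate or null replicate 2 or 3 (0.0603 to 0.136). Eci2 (0.22 ± 0.09, adjusted p = 0.123) passed with only these 6 arrays (0.0299) and without the null Hras GW0742 group (0.0272). Hadha (0.13 ± 0.05, adjusted p = 0.106) passed with trend and robust moderation (0.0494) and without the null Hras GW0742 group (0.0493).

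In the same comparison 5 of 7 fibroblast markers were lower in null cells and 1 higher, and 4 of 6 melanocyte markers were lower. Summed levels were 12.13 to 12.16 in null and 12.65 to 12.75 in wild-type mock DMSO arrays for fibroblast markers, and 13.50 to 13.55 in null and 13.80 to 13.89 in wild-type arrays for melanocyte markers. Their part in the genotype values was not tested.

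In Hras DMSO cells 2 enzymes were lower in null and 0 higher, where 9.32% of all genes were lower, 10.1% higher and 19.4% differed. Acadl was at 9.94, 9.85 and 9.80 in null Hras arrays, against 10.34, 10.37 and 10.30 in wild-type Hras arrays (-0.47 ± 0.06, adjusted p = 1.33e-05). Its genotype difference thus had opposite signs in mock and Hras cells, both past the threshold. Decr1 was lower by -0.35 ± 0.10 (adjusted p = 0.014), a call lost without wild-type Hras DMSO replicate 1 (0.0862) or null Hras DMSO replicate 2 (0.0636) or 3 (0.0733). Eci2 did not pass (-0.24 ± 0.09, adjusted p = 0.0538) but did with the replicate block (0.0323) and under 3 other alternatives with all its arrays (0.00878 to 0.0289). Of the fibroblast markers 3 were higher and 1 lower in null, with sums of 11.44 to 11.57 in null and 11.47 to 11.54 in wild-type Hras DMSO arrays. Of the melanocyte markers 0 passed by limma and 1 had an unadjusted p under 0.05, and the part of either list was not tested.

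With GW0742 present the genotypes stood far apart. In mock cells 6 enzymes were lower and 3 higher in null than in wild-type, where 10.9% of all genes were lower, 11.1% higher and 22% differed. Decr1 was lower by -2.23 ± 0.10 or 4.70-fold, Eci2 by -1.32 ± 0.09, Hadhb by -1.20 ± 0.06, Hadha by -0.99 ± 0.05, Acaa2 by -0.73 ± 0.07 and Acadvl by -0.33 ± 0.07. Eci1 (0.16 ± 0.07, adjusted p = 0.131) passed with only these 6 arrays (0.0304). Acads (0.36 ± 0.07), Acadm (0.24 ± 0.06) and Acadl (0.22 ± 0.06, adjusted p = 0.0127) were higher. The Acadl call was lost without wild-type mock GW0742 replicate 1 (0.0612) or 3 (0.0507) or null mock GW0742 replicate 2 (0.0544).

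In Hras GW0742 cells 9 of 10 were lower in null cells, where 11.2% of all genes were lower, 9.91% higher and 21.1% differed. Decr1 was lower by -1.60 ± 0.10, Eci2 by -1.42 ± 0.09, Hadhb by -1.21 ± 0.06, Acadl by -1.18 ± 0.06, Acaa2 by -1.13 ± 0.07 and Hadha by -0.94 ± 0.05. Acads (-0.40 ± 0.07), Acadvl (-0.39 ± 0.07) and Eci1 (-0.24 ± 0.07, adjusted p = 0.022) were lower by less. Eci1 was lost with only these 6 arrays in the model (0.0999), without wild-type Hras GW0742 replicate 1 (0.0589) or 2 (0.0802) and without null Hras GW0742 replicate 1 (0.0708). The standard errors pool the spread of all 8 groups, although the median SD over genes was 0.122 in the null and 0.0798 in the wild-type arrays compared. With only these 6 arrays limma called 8 members and 1686 of all genes, against 9 and 4201 with all 24 arrays. Acadm was at 9.97, 9.73 and 9.65 in null arrays, against 9.71, 9.83 and 9.81 in wild-type arrays, so the groups overlapped (0.00, 95% interval -0.13 to 0.14). Both comparisons share their arrays with the ligand comparisons above. Fibroblast markers counted 4 lower and 1 higher of 7 in null mock GW0742 cells (12.18 to 12.27 summed, against 12.47 to 12.64 in wild-type), and 0 lower and 1 higher in null Hras GW0742 cells (11.45 to 11.51, against 11.41 to 11.51). Of 6 melanocyte markers 1 was lower in null mock GW0742 cells (13.50 to 13.54, against 13.66 to 13.73 in wild-type), and 3 were higher in null Hras GW0742 cells (12.97 to 13.31, against 12.75 to 12.90). Their part was not tested.

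**Figure D3:**
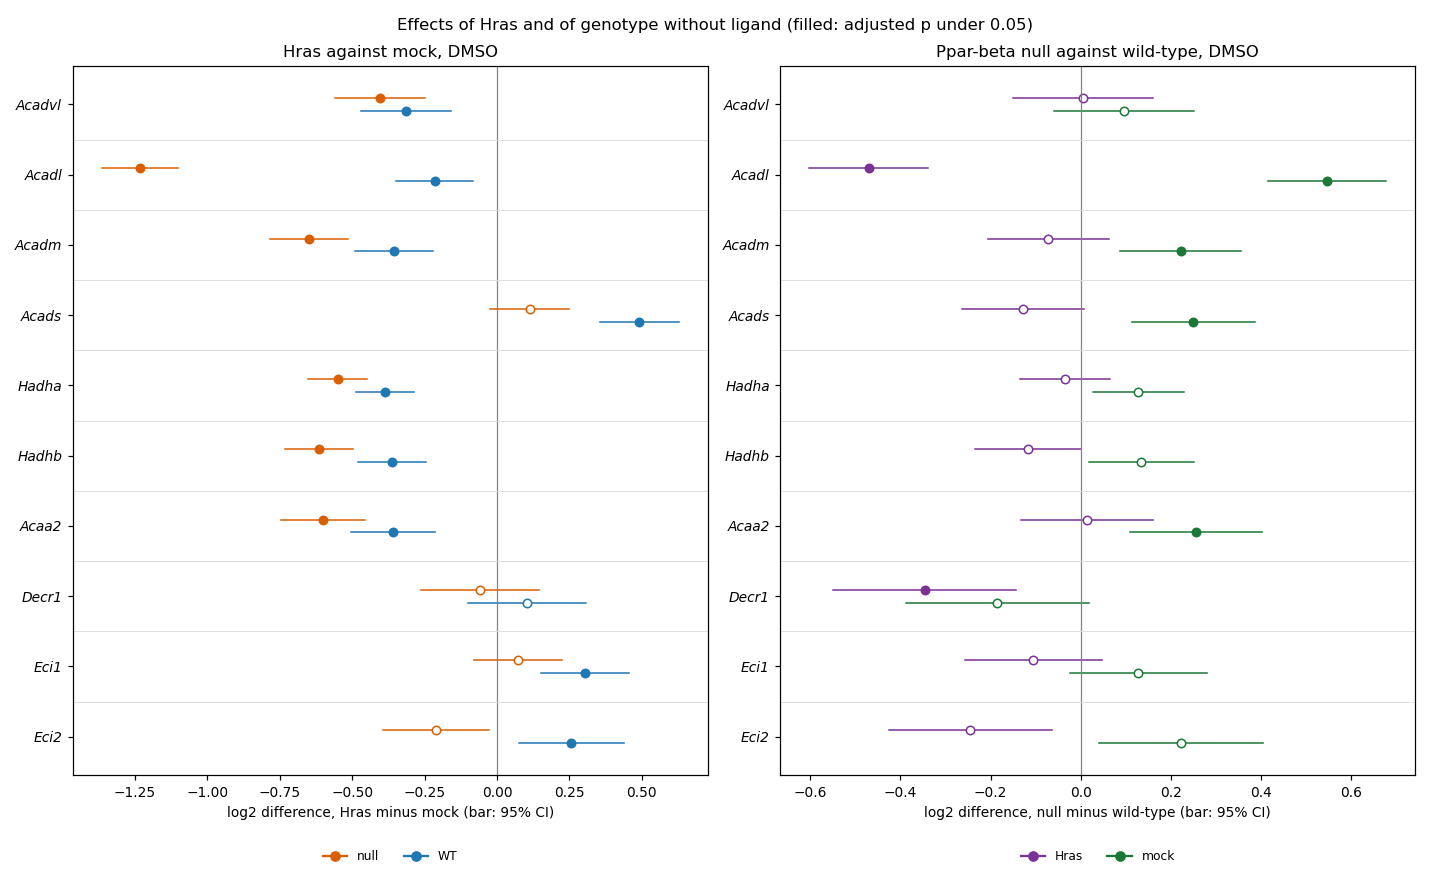
Log2 differences in DMSO for each gene with 95% confidence intervals, filled where the adjusted p was under 0.05: Hras minus mock (left; orange null, blue wild-type) and Ppar-beta null minus wild-type (right; purple Hras, green mock). Acadl stands out in both panels, at -1.23 for Hras in null cells and at -0.47 and 0.55 for genotype in Hras and mock cells.

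Over the 8 groups the span of group means was widest for Decr1 (2.54), followed by Hadhb (1.71), and lay between 1.49 and 1.51 for Acaa2, Hadha and Eci2. It was 1.25 for Acadl, 0.73 for Acadvl and Acadm, 0.67 for Acads and 0.37 for Eci1. For Hadha, Hadhb, Acaa2, Decr1 and Eci2 the wild-type mock GW0742 group was highest and the wild-type Hras GW0742 group came next. The arrays of this top pair did not overlap except for Eci2. Below them, Hadhb ran from null mock DMSO (9.84) through null mock GW0742 (9.74) and wild-type mock DMSO (9.71) to null Hras GW0742 (9.44), wild-type Hras DMSO (9.35) and null Hras DMSO (9.23). Of these, null mock GW0742 and wild-type mock DMSO overlapped, and each of the 3 Hras groups overlapped its neighbour.

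Acadl had another order. Its null mock DMSO (11.10), null mock GW0742 (11.04) and wild-type Hras GW0742 (11.03) groups were highest, with overlap between neighbours among them. Wild-type mock GW0742 (10.82), wild-type mock DMSO (10.55) and wild-type Hras DMSO (10.34) followed without overlap, and the null Hras groups with DMSO (9.86) and GW0742 (9.85) lay lowest and overlapped. Acadm ran from null mock DMSO (10.51) to wild-type Hras GW0742 (9.78), with the 4 mock groups above the 4 Hras groups. Acads ran from wild-type Hras GW0742 (10.12) down to wild-type mock GW0742 (9.45), with null Hras GW0742 (9.72) below both null mock groups (9.81 and 9.78), and most neighbours overlapped. Eci1 was highest in wild-type Hras DMSO (8.68) and lowest in wild-type mock GW0742 cells (8.31).

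Across the 8 group means, which share genotype, virus and ligand and are given as a description, Hadha and Hadhb had a Pearson r of 0.990. It was 0.988 over the 6 groups left without the wild-type GW0742 groups. Decr1 and Eci2 had r = 0.944 over 8 groups and 0.57 over those 6. Acads and Eci1 had r = 0.935 and 0.92. Acadvl and Acadm, on chromosomes 11 and 3, had r = 0.551 over 8 groups and 0.989 over the 6. Acadm had r = 0.170 with Hadha over 8 groups and 0.952 over the 6. With the mean of the other members over 8 groups, r was -0.21 for Acads, -0.21 for Eci1 and 0.12 for Acadm. For the rest it lay between 0.70 for Acadl and 0.97 for Acaa2, so the mean profile does not stand for every member. Among 5601 other genes whose group means spanned at least 0.5, the profiles most like the mean of the 10 were those of Cpt2 (r = 0.970), Etfb (0.968), Gldc (0.957), Shroom3 (0.953) and Nfe2l3 (0.952), each over 8 group means. Etfb encodes a subunit of the electron transfer flavoprotein that accepts electrons from the acyl-CoA dehydrogenases.

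**Figure D4:**
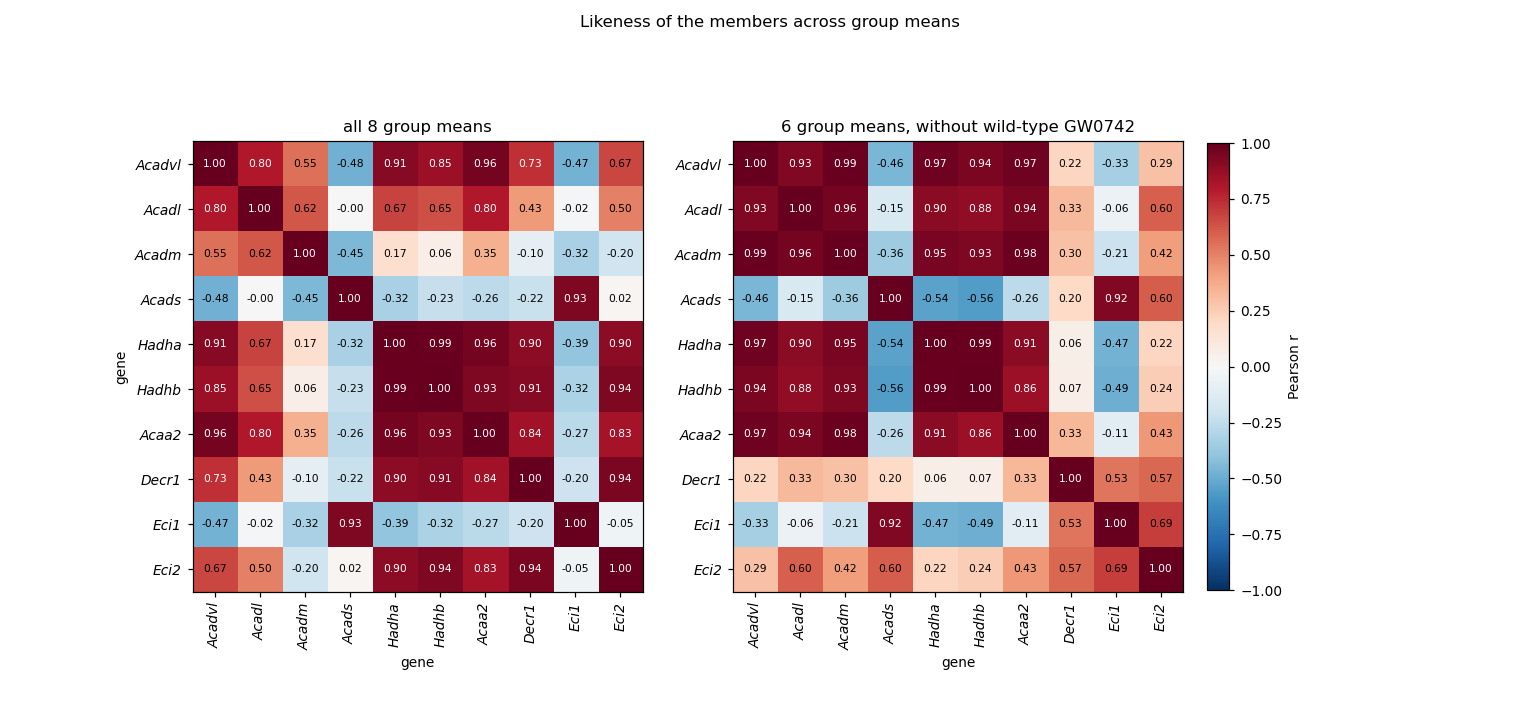
Pearson r between the genes over all 8 group means (left) and over the 6 means without the wild-type GW0742 groups (right), coloured from blue at -1 to red at 1. Hadha and Hadhb stay at 0.99 in both panels, while Acadm and Hadha are at 0.17 on the left and 0.95 on the right.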

How the data were processed

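The authors deposited log2 expression values of 24 Affymetrix Mouse Gene ST arrays, made with RMA per the submitters' processing notes. Neither the RMA software and its version nor the genome build is stated there. The table gives no detection calls, so a dim value cannot be told from background. Of 34760 probe sets, 21640 had 1 gene symbol, and each gene took the one with the highest mean, which left 19937 genes. In R 4.3.3, limma 3.58.1 fitted 1 mean per group to the 24 arrays by lmFit and eBayes (residual degrees of freedom 16, prior 4.435), with two-sided p-values adjusted by Benjamini-Hochberg over all genes, for 12 pairwise comparisons and 4 differences between effects. The number of arrays limits the precision. The same procedure was tested on simulated data. Quantile normalization, part of RMA, measures each gene relative to the rest.

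The members and the lists were chosen with earlier results of these data known. All 10 members are named, with at most 4 passing members of each other list by absolute change, the 5 closest profiles and Ppard. Hras was not analysed here. Some listed genes are not reported here. Deviations of same-numbered arrays from their group means correlated above 0.1 in every pair (0.118 to 0.144) only for the genotypes in mock DMSO cells. There the block kept all 4 calls. Promoter windows came from RefSeq (GRCm38.p6). Alternatives were arrays centred on their median, the dimmest 40% of genes left out, the mean of a gene's probe sets, trend and robust moderation, a minimum fold of 1.5, a replicate block, only the arrays compared, leaving out the null Hras GW0742 arrays together, and each array left out. Figures used matplotlib 3.10.9, pandas 2.3.3 and Python 3.11.15.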

Additional observations from a re-analysis of the deposited data

Results flagged for a closer look

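The effect of GW0742 differed between null and wild-type mock cells, by the test of the difference itself, for Decr1 (-2.05), Eci2 (-1.54), Hadhb (-1.34), Hadha (-1.12) and Acaa2 (-0.98), as log2 effect in null minus wild-type cells. In Hras cells it differed for Decr1 (-1.25), Eci2 (-1.17), Acaa2 (-1.15), Hadhb (-1.09), Hadha (-0.9) and Acadl (-0.71). Within wild-type cells the response to GW0742 was unlike with and without Hras for Decr1 (-1.05) and Acadl (0.43), as log2 effect in Hras minus mock cells. The effect of Hras in DMSO differed between null and wild-type cells for Acadl (-1.02), Eci2 (-0.47), Acads (-0.38), Acadm (-0.29) and Hadhb (-0.25), the last 2 of which lost the call without single arrays as given above. That of Hadhb was also lost with centred arrays (adjusted p = 0.0527) and when only the arrays compared were modelled (0.0553). With 3 arrays a group, no search for outlying arrays was made.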

How the results depend on the processing

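No call of a member reversed its direction. Directions were compared only where a value passed in the main model or in the alternative. Of 1080 values of single members under the alternatives other than the minimum fold and leaving out an array, 1044 kept the call or its absence, 7 lost the call and 29 gained it. Of 1200 values with an array left out, 1133 kept the call or its absence, 56 lost and 11 gained the call.

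With a minimum fold of 1.5 the members called were 4 for GW0742 in wild-type mock and 4 in wild-type Hras cells, 0 in null Hras cells and 0 for the ligand effect between Hras and mock cells. For Hras they were 0 in wild-type DMSO, 1 in null DMSO, 1 in wild-type GW0742 and 1 in null GW0742 cells, and 1 for Hras between genotypes. For genotype they were 0 in mock DMSO, 0 in Hras DMSO and 4 in mock GW0742 cells. That setting asks for a larger change by construction. It called 6 for genotype in Hras GW0742 cells and, for the ligand between genotypes, 4 in mock and 4 in Hras cells. Over all genes it called 23 for GW0742 in wild-type mock and 86 in wild-type Hras cells, against 570 and 1219 without it, and for Hras 1206 to 1397, against 7025 to 8327. For genotype it called 59 in mock DMSO, 109 in Hras DMSO, 126 in mock GW0742 and 221 in Hras GW0742 cells. For the ligand between genotypes it called 17 in mock and 23 in Hras cells. The ligand effect between Hras and mock cells had 10, and Hras between genotypes 189. With only the arrays compared, limma called 0 members for GW0742 in null Hras cells, with 3 at an unadjusted p under 0.05. Over all genes that comparison called 1001, against 0 with only its arrays, 393 without GW0742 replicate 2 and 2539 without GW0742 replicate 1.

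Leaving out 1 array at a time gave 6 to 7 members for GW0742 in wild-type mock, 7 to 7 in wild-type Hras, 0 to 0 in null mock and 0 to 3 in null Hras cells. Over all genes these were 288 to 401, 821 to 1111, 0 to 2 and 393 to 2539. The ligand difference between genotypes had 5 to 6 in mock and 6 to 7 in Hras cells, and that between Hras and mock cells 2 to 2. All-gene counts were 114 to 162, 240 to 651 and 286 to 482. Hras had 8 to 9 in wild-type DMSO, 6 to 7 in null DMSO, 8 to 9 in wild-type GW0742 and 6 to 8 in null GW0742 cells, and 3 to 6 between genotypes. All-gene counts were 6642 to 6882, 7458 to 7800, 6248 to 6545, 7543 to 8466 and, between genotypes, 2669 to 3549. Genotype had 1 to 4 in mock DMSO, 1 to 3 in Hras DMSO, 8 to 9 in mock GW0742 and 8 to 9 in Hras GW0742 cells. The counts over all genes were 1395 to 1904, 2849 to 3815, 3447 to 3803 and 3342 to 6225.

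The replicate block gave 6 members for the ligand between genotypes in mock and 7 in Hras cells, 7 for Hras in null DMSO cells and 3 for genotype in Hras DMSO cells, and changed no other count. Over 36 pairs of same-numbered arrays the correlation of deviations lay between -0.183 and 0.241. These values cannot tell whether same-numbered arrays share an animal or culture, which the labels do not state. The PPAR element was found in 0 windows of the members with 2 mismatches and in 1 with 3. The cause of the changes was not tested apart from the minimum fold. Arrays of 3 per group limit small differences such as those of Eci1.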
